A study of Mus musculus with 18 samples.

Results

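The imprinted growth genes described here are H19, Igf2, Mest, Dlk1, Meg3, Plagl1, Peg3, Cdkn1c, Grb10 and Ndn, 10 of the 49184 genes with an annotated symbol in cartilage RNA from mouse knees after rupture of the anterior cruciate ligament (ACL). They were chosen from known imprinted genes after their levels had been seen, with those standing furthest up in the injured knees at day 7 named first. The contrast behind the choice is not stated, so their values in every contrast with those libraries are given as a description and without a test. All knees came from wild-type, skeletally mature male C57Bl/6J mice that carried no engineered allele. The injured group had the right ACL ruptured by a single 12 N compressive load, and buprenorphine was given for pain relief. The contralateral group was the unloaded left knee of the injured mice, and the naïve group came from mice without any load. The design had 6 naïve libraries, 3 contralateral and 3 injured libraries at day 1, and 3 contralateral and 3 injured libraries at day 7. The naïve libraries are labelled as day 7 only, so that day 1 against naïve also compares across days. Each was a pool of cartilage caps from several mice (4 per the text deposited with the series), so n counts pools. The study's methods give other pool sizes for some groups, so the number of mice behind each library is not certain. Naïve pools shared mice, left and right knees having been pooled apart, and the labels do not say which did.

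Genomic imprinting is the marking of a gene by DNA methylation in the egg or sperm, so that only the copy from the mother or only the copy from the father is transcribed. Many imprinted genes act on growth before birth, are abundant in the embryo and placenta, and fall in most tissues after birth. H19 and Igf2 are the textbook pair, in which a shared control region gives H19 to the maternal and Igf2 to the paternal chromosome. The mice were inbred, so the parental copies carry the same sequence and allelic expression could not be measured in these libraries.

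Depth ranged from 16074762 to 41794005 estimated counts per library, with a median of 25465706. Levels are given as CPM, the estimated counts of a gene scaled to a common library total, after TMM normalization over the 18 libraries. A level of 3 counts, taken as the floor of detection, corresponded to between 0.0718 and 0.187 CPM before that scaling. Day 7 contralateral replicate 1 stood apart from the rest. Its 10 most abundant genes took 42.5% of its counts, led by Gm12895, against 16.6% to 29.8% in the other 17 libraries, and the contrasts with the day 7 contralateral group are given with it, with the values without it where these were examined. The tissue label was checked against chondrocyte markers, all 8 of which were detected, with Col2a1 the most abundant. RNA of fibroblasts, skeletal muscle, neutrophils and red cells was also present.

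The sequences shown are the stretches before the transcription starts on which most estimated counts of Mest and Igf2 fell in the day 7 injured libraries, though by TPM, which corrects for length, the Igf2 start held 43.6%. They are taken from RefSeq (build GRCm38.p6), 250 bases before each start and read in the direction of the gene. Capitals mark the hexamer TGCCGC on either strand (GCGGCA on the strand shown), the letters that the imprint-protecting zinc finger protein ZFP57 recognises when methylated.
Mest, chr6:30737800-30738049, plus strand: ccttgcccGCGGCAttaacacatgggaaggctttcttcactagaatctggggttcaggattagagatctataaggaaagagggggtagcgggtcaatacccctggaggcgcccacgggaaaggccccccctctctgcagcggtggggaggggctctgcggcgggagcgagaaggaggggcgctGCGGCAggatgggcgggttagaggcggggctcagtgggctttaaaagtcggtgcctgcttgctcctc
Igf2, chr7:142657497-142657746, minus strand: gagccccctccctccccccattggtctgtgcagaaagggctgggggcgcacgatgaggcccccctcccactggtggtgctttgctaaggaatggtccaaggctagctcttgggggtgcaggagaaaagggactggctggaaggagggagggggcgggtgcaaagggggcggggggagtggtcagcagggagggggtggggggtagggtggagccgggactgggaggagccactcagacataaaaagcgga

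The Mest stretch held 2 copies of the hexamer and 14 CpG dinucleotides. The Igf2 stretch held no copy and 6 CpGs, which is also the median of the 32851 RefSeq windows of the same length. Across all windows, 8.68% held the hexamer on either strand. RefSeq windows matched 8 of the 10 genes, with 15 windows in all, of which 4 held it. These 4 were both overlapping windows of Mest and a window each of Plagl1 and Meg3. H19 and Cdkn1c had no entry. A match of 6 letters is a description of the window and not a bound site.

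H19 and Mest are also hosts of microRNAs, miR-675 of H19 being known for restraint of placental growth. Its hairpin lies within an exon of transcript H19-202 (chr7:142577064-142577147), and the miR-335 hairpin lies within the span of Mest-211 but within none of its exons as a whole (chr6:30741299-30741396). The mature 5p forms are shown because their hairpins lie within these host genes, with the seed (bases 2 to 8) in capitals.
miR-675-5p: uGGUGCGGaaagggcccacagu
miR-335-5p: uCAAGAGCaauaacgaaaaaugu
The seeds of the pair differ. Mature microRNAs were not measured in these libraries. The paper sequenced small RNAs of the naïve, contralateral and injured cartilage in other libraries, which were not used here.

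All 10 genes were higher in the 3 injured libraries at day 7 than in every one of the 15 other libraries. They were chosen after these levels had been seen, so the separation is a description. The share of all genes that lie apart in this way was not computed. Against naïve, 10.4% of the 21129 genes tested were called higher. Their summed level averaged 191 CPM in the naïve and 1173 CPM in the day 7 injured libraries. Of the 10, 8 were highest in injured replicate 3 and 8 were lowest in injured replicate 1. In these bulk samples, fewer cells of a type and less RNA per cell cannot be told apart, and nor can more cells and more RNA per cell.

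**Figure D1:**
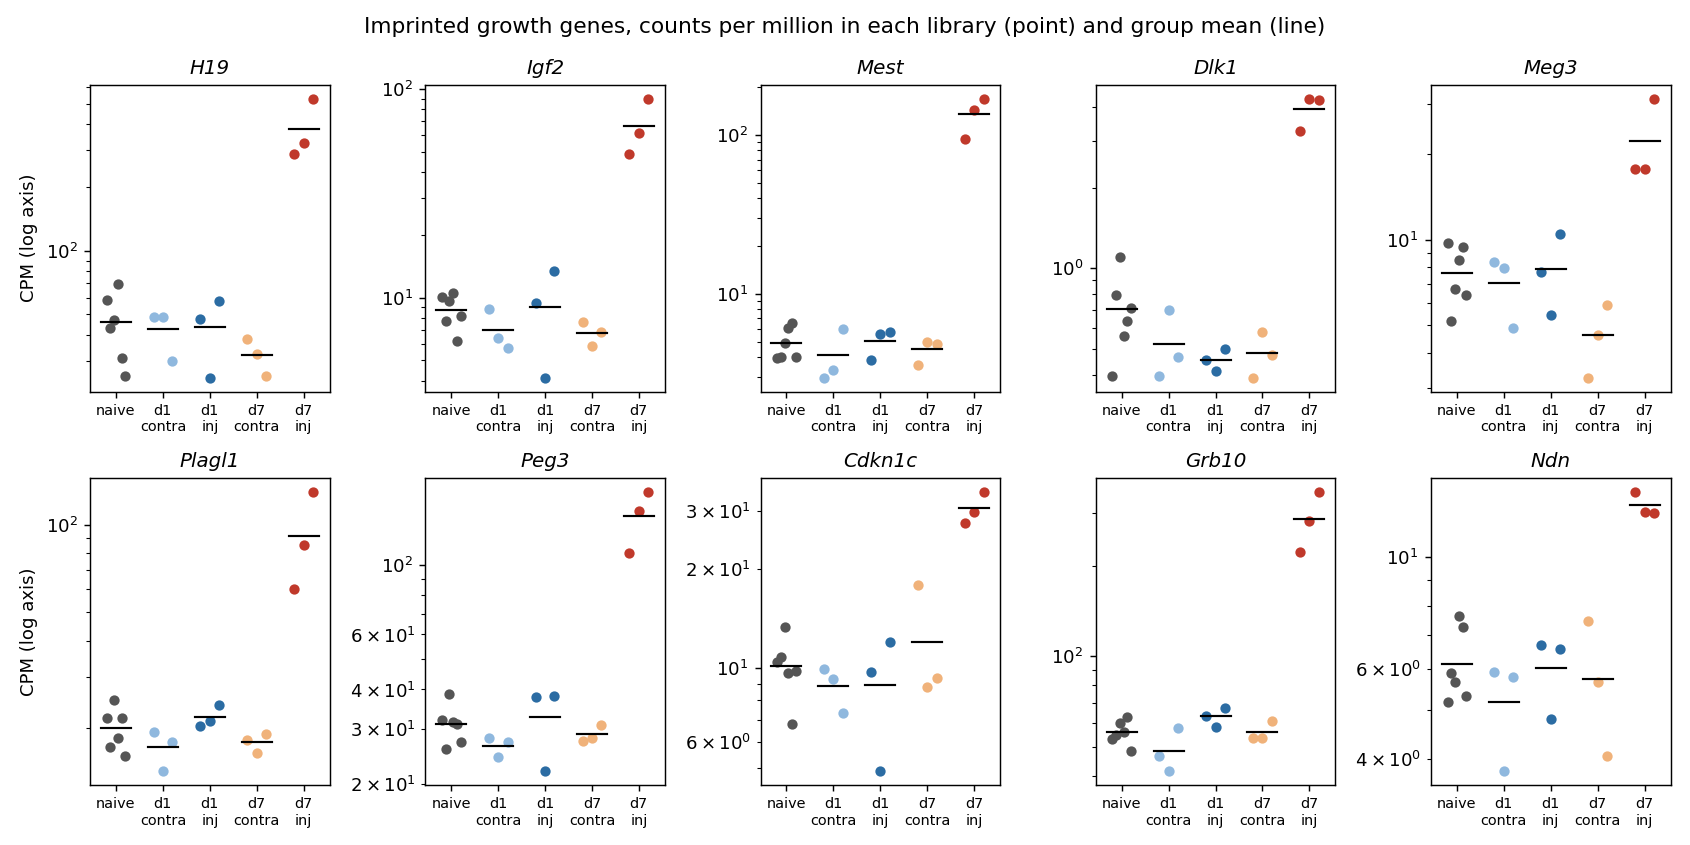
Level of each of the 10 genes in each library, in CPM on a log axis that differs between panels, with 1 point per library and a line at the group mean (d1, day 1; d7, day 7; contra, contralateral; inj, injured). In every panel the 3 day 7 injured libraries lie above the 15 others, and the genes were chosen after these levels had been seen.

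Mest, which encodes a protein of the alpha/beta hydrolase fold and is expressed from the paternal copy, had the greatest change. In the naïve libraries its lowest, median and highest levels were 3.95, 4.43 and 6.56 CPM. In the day 7 injured libraries it was at 94.4, 144 and 169 CPM, whereas the contralateral libraries of the same day were at 3.58, 4.95 and 4.87 CPM. At day 1 the contralateral libraries were at 2.97, 3.31 and 6.03 CPM and the injured libraries at 3.81, 5.56 and 5.72 CPM. The lowest day 7 injured library was thus 14.4-fold above the highest of the 15 others, and the other 4 groups overlapped. The log2 fold change was 4.79 ± 0.24 (SE) against naïve, 4.91 ± 0.31 against day 7 contralateral and 4.77 ± 0.31 against day 1 injured. With an offset for transcript length the latter pair was 4.24 and 4.18.

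H19, a long noncoding RNA expressed from the maternal copy, was the most abundant of the 10 per length, though not by CPM in the naïve libraries, where Grb10 was higher. It ranged from 25.4 to 69.5 CPM in the naïve libraries, with a median of 45.2 CPM. The day 7 injured libraries were at 289, 326 and 527 CPM and the day 7 contralateral libraries at 38.0, 32.4 and 25.3 CPM. The injured libraries were all above the highest other library, by 4.17-fold at the least, although H19 also spread 2.78-fold among the 15 others. At day 1 it was at 48.7, 48.7 and 29.9 CPM in the contralateral and 47.3, 25.0 and 57.8 CPM in the injured libraries, within the naïve range except for injured replicate 2, which lay just below it. The log2 fold change was 3.07 ± 0.30 against naïve, 3.58 ± 0.39 against day 7 contralateral and 3.15 ± 0.39 against day 1 injured.

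Igf2 encodes insulin-like growth factor 2, the paternally expressed growth factor of the embryo, and lies 72622 bases from H19 on chromosome 7. Its lowest, median and highest naïve levels were 6.17, 8.90 and 10.5 CPM. The day 7 injured libraries were at 49.0, 61.6 and 89.6 CPM and the day 7 contralateral libraries at 7.64, 5.84 and 6.83 CPM. At day 1 the contralateral libraries lay between 5.72 and 8.77 CPM, and the injured libraries at 9.44, 4.13 and 13.4 CPM spanned the whole range of the 15 libraries. The day 7 injured libraries did not overlap any other group. The log2 fold change was 2.95 ± 0.27 against naïve, 3.31 ± 0.34 against day 7 contralateral and 2.92 ± 0.34 against day 1 injured.

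The H19 and Igf2 levels are also described against each other outside the injured libraries of day 7. No p is given, since the levels were known when the genes were chosen, the libraries come from 4 groups and some share mice. Over the 15 other libraries, Pearson's r of their log2 CPM was 0.764 and Spearman's rho was 0.782, and r was 0.719 without the 2 libraries farthest from the median of H19. Within the naïve group (n = 6) r was 0.756 and rho was 0.829. For Dlk1 and Meg3, the other neighbouring pair of opposite parental origin, r was 0.0526 and rho was 0.0286 over the 15 libraries, r was 0.205 without the 2 farthest, and within the naïve group r was -0.689 and rho was -0.771. Without day 7 contralateral replicate 1, over 14 libraries, r was 0.764 for H19 and Igf2 and -0.168 for Dlk1 and Meg3.

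**Figure D2:**
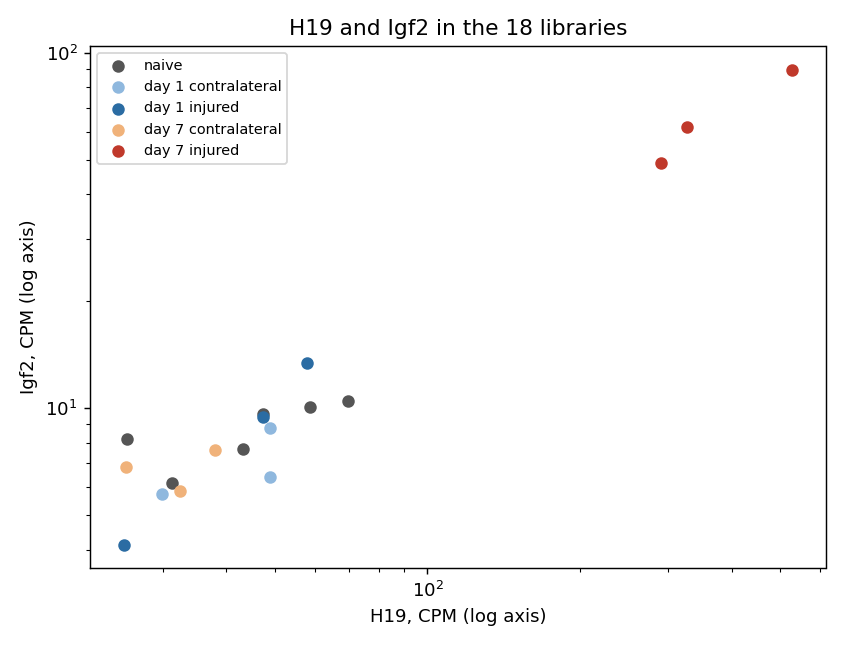
H19 (x axis) against Igf2 (y axis) in CPM on log axes, with 1 point per library coloured by group. The 3 day 7 injured libraries lie apart at upper right, from 289 CPM of H19 and 49.0 CPM of Igf2, and the 15 others form a rising band below 70 CPM of H19 and 14 CPM of Igf2.

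Dlk1, a transmembrane Notch-related ligand known for holding back adipocyte differentiation, and Meg3, a noncoding RNA, lie 77664 bases apart on chromosome 12. Dlk1 was the scarcest of the 10. It was at 3.27, 4.31 and 4.26 CPM in the day 7 injured libraries (68 to 92 counts) and at most at 1.11 CPM in the 15 others, where it rested on 5 to 32 counts. The injured libraries were at least 2.96-fold above the highest of these. Meg3 was at 17.8, 17.7 and 31.4 CPM in the day 7 injured libraries and at 3.27, 4.64 and 5.91 CPM in the contralateral libraries of that day, which were all below the naïve median of 7.60 CPM. The log2 fold change against naïve was 2.49 ± 0.24 for Dlk1 and 1.56 ± 0.25 for Meg3.

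Plagl1 encodes a zinc finger transcription factor known for binding at other imprinted genes, Peg3 encodes a large zinc finger protein, and Grb10 encodes an adaptor that restrains signalling by the insulin and IGF1 receptors. Plagl1 was at 60.1, 85.4 and 129 CPM in the day 7 injured libraries, and no other library passed 25.0 CPM. Peg3 was at 110, 150 and 171 CPM, against at most 38.8 CPM elsewhere. Grb10 was at 223, 282 and 352 CPM, against at most 67.5 CPM. The log2 fold changes of the trio against naïve were close, at 2.21 ± 0.18, 2.22 ± 0.16 and 2.37 ± 0.13. Their profiles over the 18 libraries, which include the day 7 injured libraries and so largely restate these fold changes, were the closest pairs among the 10. The root mean square difference of centred log2 CPM was 0.164 for Plagl1 and Grb10, 0.177 for Peg3 and Grb10, 0.191 for Plagl1 and Peg3, and 0.285 for H19 and Igf2.

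Cdkn1c, the maternally expressed inhibitor of cyclin-dependent kinases p57, lies 791522 bases from Igf2. It was at 27.7, 29.7 and 34.2 CPM in the day 7 injured libraries. The contralateral libraries were at 17.9, 8.78 and 9.36 CPM, the first of them being the library that stood apart. Its log2 fold change against day 7 contralateral was 1.36 ± 0.30 with that library and 1.77 ± 0.30 without it. Ndn, which encodes necdin, a paternally expressed protein known for restraint of cell division in neurons, had the smallest change. It was at 13.4, 12.2 and 12.2 CPM against 3.79 to 7.63 CPM in the 15 others, a log2 fold change of 1.05 ± 0.16 against naïve. For the 9 genes other than Cdkn1c, the fold change against day 7 contralateral without that library ranged from 1.40 ± 0.23 for Ndn to 4.81 ± 0.36 for Mest.

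Levels can be compared between genes only per length, and on the TPM scale, which divides by transcript length, the order of the 10 was not the same in the 2 states. In the naïve libraries, mean TPM was 11.9 ± 4.33 (SD, n = 6) for H19 and 6.37 ± 1.28 for Grb10, with Igf2 at 1.81 ± 0.247, Mest at 1.37 ± 0.435 and Dlk1 last at 0.265 ± 0.0963. In the day 7 injured libraries H19 was at 83.4 ± 36.0 TPM (SD, n = 3), Mest at 25.3 ± 9.01 TPM and Grb10 at 25.3 ± 9.09 TPM, so that Mest was no longer among the scarce genes and its level could not be told from that of Grb10. Igf2 at 13.3 ± 4.70 TPM, Plagl1 at 12.5 ± 5.52 TPM and Cdkn1c at 11.5 ± 2.29 TPM overlapped within their spread.

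As a description, the median log2 fold change of the 10 in day 7 injured against naïve libraries was 2.30, beside -0.04 over all 21129 genes tested.

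The contrasts without the day 7 injured libraries called none of the 10 genes (quasi-likelihood test of edgeR, FDR≤0.05, ≥1.5-fold). Their values too were known when the genes were chosen, so they are not shown to be independent of the choice. By edgeR the lowest adjusted p was 0.987 for day 1 injured against naïve, 0.755 for day 1 injured against day 1 contralateral, 1.00 for day 1 contralateral against naïve and 0.266 for day 7 contralateral against naïve. The percentage of all genes called was 0 in each of these contrasts. At an unadjusted p under 0.05 these contrasts held 959, 1383, 554 and 3220 of all genes, respectively, and the last count was 1201 without day 7 contralateral replicate 1. Among the 10 this was 1 gene each, except for 0 in the third. DESeq2 and limma-voom called none of the 10 in any of these contrasts, and of all genes DESeq2 called 7, 0, 2 and 31 and limma-voom 0 in each. Without day 7 contralateral replicate 1 the count of 31 was 1.

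The gene with the lowest p in each contrast that held an unadjusted p under 0.05 missed the adjusted threshold. Grb10 had the lowest p of the 10 at day 1 injured against contralateral, with a log2 fold change of 0.37 ± 0.15 (edgeR, adjusted p = 0.755). Dlk1 had a log2 fold change of -0.64 ± 0.29 in day 1 injured against naïve (edgeR, adjusted p = 0.987). Meg3 had -0.71 ± 0.28 in day 7 contralateral against naïve (edgeR, adjusted p = 0.266), and -0.54 ± 0.31 without the library that stood apart. Mest was at 0.02 ± 0.26 in day 1 injured against naïve and at 0.26 ± 0.29 against day 1 contralateral.

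**Figure D3:**
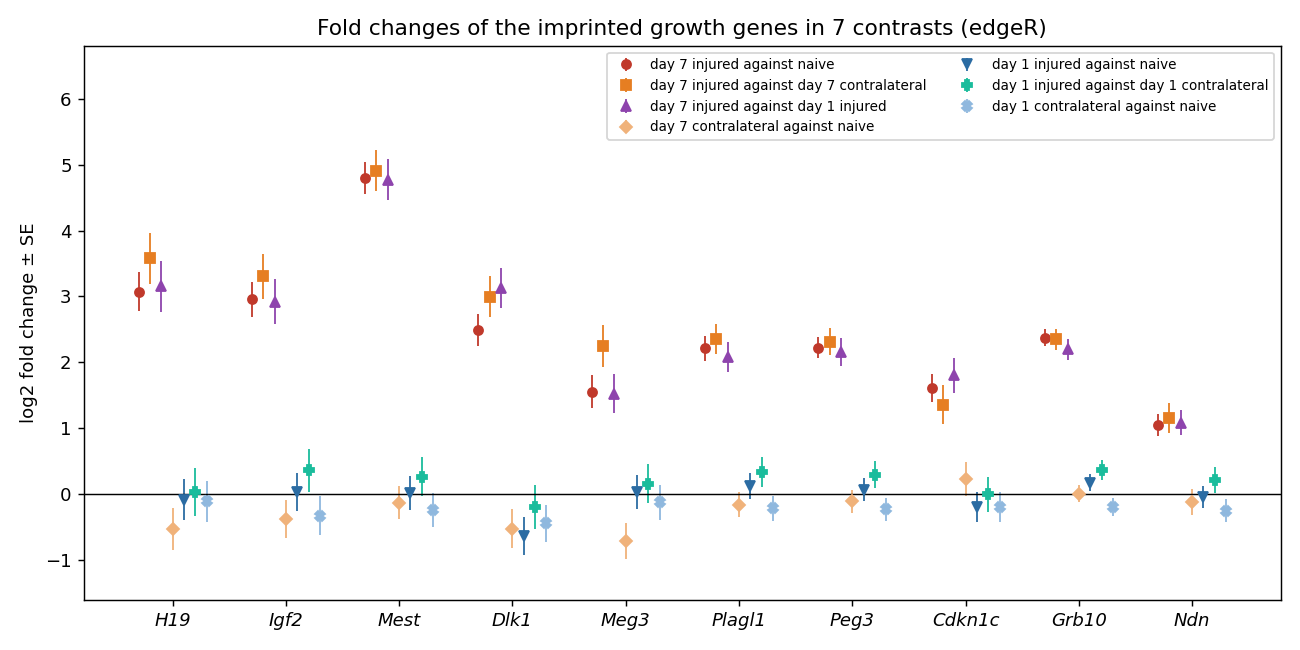
Log2 fold change (y axis) of the 10 genes (x axis) in 7 contrasts from edgeR, with bars of 1 SE on each side. The 3 contrasts with the day 7 injured libraries lie between 1.05 and 4.91, and the 4 others between -0.71 and 0.37.

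Mest has several annotated starts, and its transcripts were counted apart. The start of transcripts Mest-211, Mest-202 and Mest-204, within 5 bases of each other and shown above, carried 93.6, 139 and 168 CPM in the day 7 injured libraries, which was 98.5 ± 1.64% of the estimated counts of the gene (SD, n = 3). In the naïve libraries it carried 87.3 ± 16.4% (n = 6), or 4.36 ± 1.49 CPM, and the low share of 54.8% in replicate 1 rested on 44.0 counts. Among the 3 transcripts, Mest-211 took 96.1% of the gene in the day 7 injured and 68.0% in the naïve libraries, while Mest-202 took 1.97% in the former and up to 54.7% in single naïve libraries. The first bases of this pair are 3 apart, and in those libraries Mest-211 took anything from 0.108% to 99.2%, so that at these counts the split between them is not resolved. Starts further upstream carried less in most libraries. They carried 4.07 CPM (64.3 counts) in day 7 injured replicate 2, at or near 0 in the 2 other injured libraries and at most 1.40 CPM in the 15 others. By share this was 35.2% of the Mest counts in naïve replicate 1 (28.3 counts), 13.2% in day 1 injured replicate 1 and 10.5% in day 1 contralateral replicate 1.

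The Igf2 counts were spread over more starts. The start of Igf2-201 and Igf2-202, the second stretch shown above, held 71.7 ± 5.18% of the Igf2 counts in the day 7 injured and 63.6 ± 12.9% in the naïve libraries, with overlapping ranges of 65.7% to 74.7% and 46.4% to 77.0%. In the day 7 contralateral libraries it held 52.8% on average, and in replicate 2 of these 31.0%, less than the 37.5% of the Igf2-205 start. The level of the Igf2-201 start was 48.0 ± 16.6 CPM in the day 7 injured and 5.51 ± 1.46 CPM in the naïve libraries. By TPM the share was only 43.6% in the day 7 injured libraries, with 30.8% in replicate 2, and 45.5% in the naïve libraries, so the order of the groups turned. The start of Igf2-205 held 11.5 ± 1.82% in the day 7 injured libraries, below the 17.9 ± 7.42% of the naïve libraries though with overlapping ranges. The start of Igf2-203, farthest upstream, carried 1.86 ± 0.225 CPM in the day 7 injured and 0.0993 ± 0.177 CPM in the naïve libraries. In H19, the transcript H19-202 held 83.5% of counts in the day 7 injured and 87.5% in the naïve libraries, and in Grb10 the transcript Grb10-201 held 94.4% and 93.6%. Over the other groups the mean share of H19-202 ranged from 79.4% in day 1 injured to 94.5% in day 7 contralateral libraries. That of Grb10-201 was 80.9% in day 7 contralateral libraries, with 53.5% in the lowest, and 94.9% and 93.5% in the day 1 contralateral and injured libraries.

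**Figure D4:**
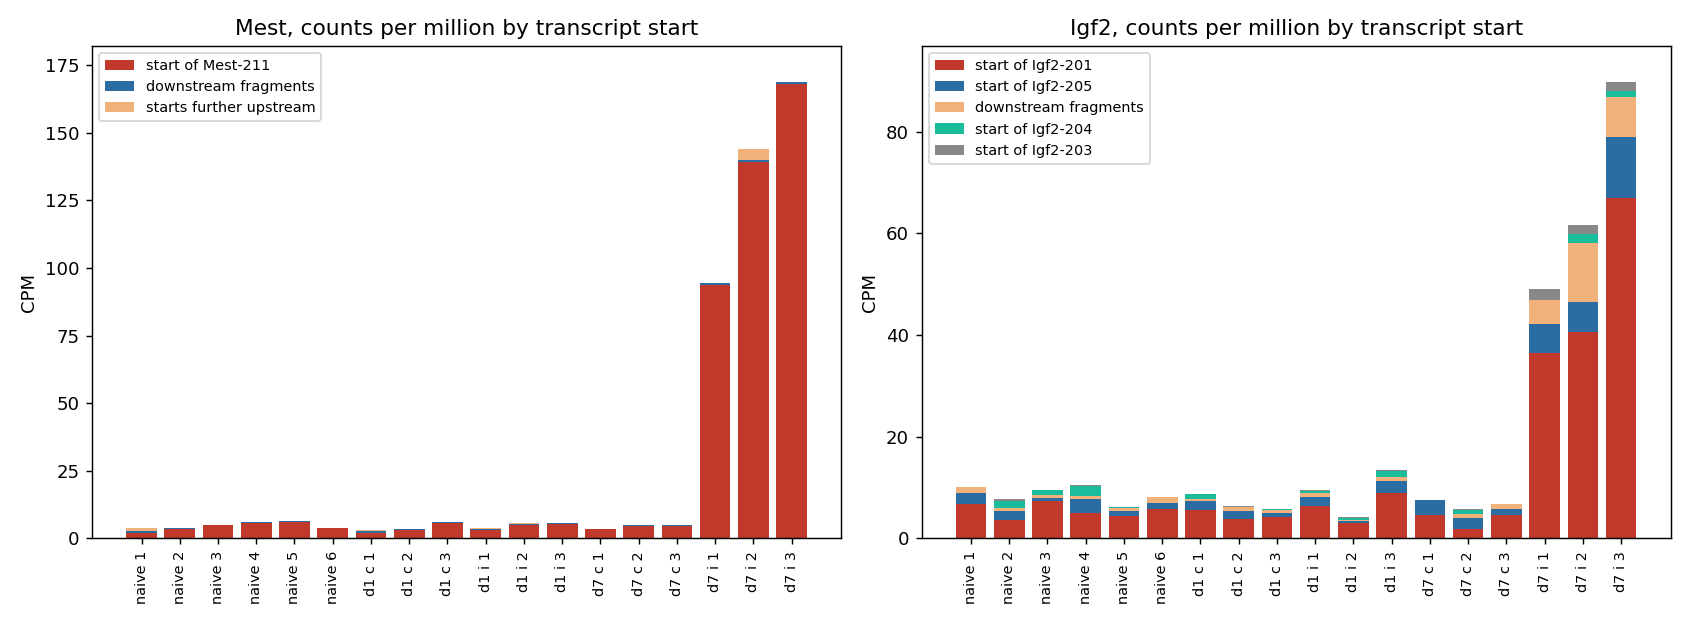
Level of Mest (left) and Igf2 (right) in CPM per library, as stacked bars from 0 that are split by transcript start (d1, day 1; d7, day 7; c, contralateral; i, injured). The bar of the Mest-211 start fills nearly the whole column in the day 7 injured libraries, and the Igf2-201 start fills most of the Igf2 columns in these libraries.

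Other imprinted genes are described beside the 10. The 10 had been taken out with these levels known. The counts and median of the rest therefore do not measure how far the pattern went among imprinted genes. A list of 54 further imprinted genes was examined, 43 of which passed the filter on low counts. Against naïve, 11 of them were higher and 1 was lower in the day 7 injured libraries (edgeR, FDR≤0.05, ≥1.5-fold), where 10.4% of all genes were called higher and 6.11% lower. Their median log2 fold change was 0.13, beside -0.04 over all genes. Against day 7 contralateral it was 11 and 1 again, though not with all the same genes. There 9.33% of all genes were called higher and 3.23% lower, and the list's median was 0.20 beside -0.05. Without the library that stood apart, 10 were higher and 0 lower there, where 9.31% of all genes were called higher and 1.99% lower.

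The called genes included the neighbours of Meg3, Dlk1 and Peg3. At the Dlk1 and Meg3 domain all 3 tested neighbours rose against naïve. The maternal noncoding RNAs Rian and Mirg had log2 fold changes of 2.52 ± 0.21 (edgeR, adjusted p = 4.7e-07) and 2.07 ± 0.31 (adjusted p = 0.00012), and the paternal Rtl1, a gene derived from a retrotransposon, had 2.38 ± 0.23 (adjusted p = 1.6e-06). Beside Peg3, the maternal zinc finger gene Zim1 rose by 2.80 ± 0.20 (adjusted p = 1.3e-07), while Usp29 was at -0.09 ± 0.24. Mirg and Rtl1 were scarce, with 4.45 ± 1.16 and 3.83 ± 0.705 CPM in the day 7 injured libraries. Meg3, Rian and Mirg are often read as pieces of a single long transcript, so they are not independent members of a group.

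The neighbours of the other members mostly were not called. Near Cdkn1c, Cd81 and Osbpl5 were among the called genes, but their log2 fold changes were 0.95, and the long noncoding Kcnq1ot1 was at -0.50 ± 0.11. In the Mest domain Copg2, whose 3′ end overlaps Mest on the other strand, was at 0.28 ± 0.07. In the Grb10 domain Cobl and Ddc were at 0.03 ± 0.33 and 0.11 ± 0.24. Near Ndn, Peg12 rose by 1.29 ± 0.30 (edgeR, adjusted p = 0.0045), while Snrpn was at -0.32 ± 0.34. Peg12 was not called against day 7 contralateral (0.89 ± 0.35, edgeR, adjusted p = 0.085). Atp10a of the same domain was called in that contrast (0.63 ± 0.17, edgeR, adjusted p = 0.015) but not against naïve (0.55 ± 0.15). Igf2's other neighbours Ins2 and Th did not pass the filter, with Ins2 at 0 counts in every library and Th at no more than 8. Whether kallisto was run with strand is not given in the sources used here, so reads of overlapping pairs such as Copg2 and Mest, Kcnq1 and Kcnq1ot1, and Igf2r and Airn may be shared.

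With the 1.5-fold limit, the only other imprinted gene called lower against naïve was Rasgrf1, a guanine nucleotide exchange factor. Its log2 fold change was -0.71 ± 0.24 (edgeR, adjusted p = 0.034) on 15 to 58 counts per library in both groups. This call held in 10 of 16 alternatives, whose adjusted p ranged from 0.018 to 0.16. It was lost with limma-voom, without the filter on low counts, and without naïve replicate 1 or 5 or day 7 injured replicate 1 or 2. Without the fold limit 3 genes were lower, the others being Kcnq1ot1 and Slc22a3. Nnat, named after its values were seen, had a larger change but was not called (-1.28 ± 0.54, edgeR, adjusted p = 0.085). Against day 7 contralateral the gene called lower was the transporter Slc22a3, named after its values were seen. Its log2 fold change was -0.81 ± 0.23 (edgeR, adjusted p = 0.020), and its adjusted p was 0.12 without the library that stood apart. By parental origin, 7 of 22 tested genes known for maternal and 4 of 20 known for paternal expression were higher against naïve, where 10.4% of all genes were. Of the members, 4 are known for maternal expression (H19, Meg3, Cdkn1c, Grb10) with log2 fold changes from 1.56 to 3.07, and 6 for paternal expression with 1.05 to 4.79, so that the ranges overlapped.

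**Figure D5:**
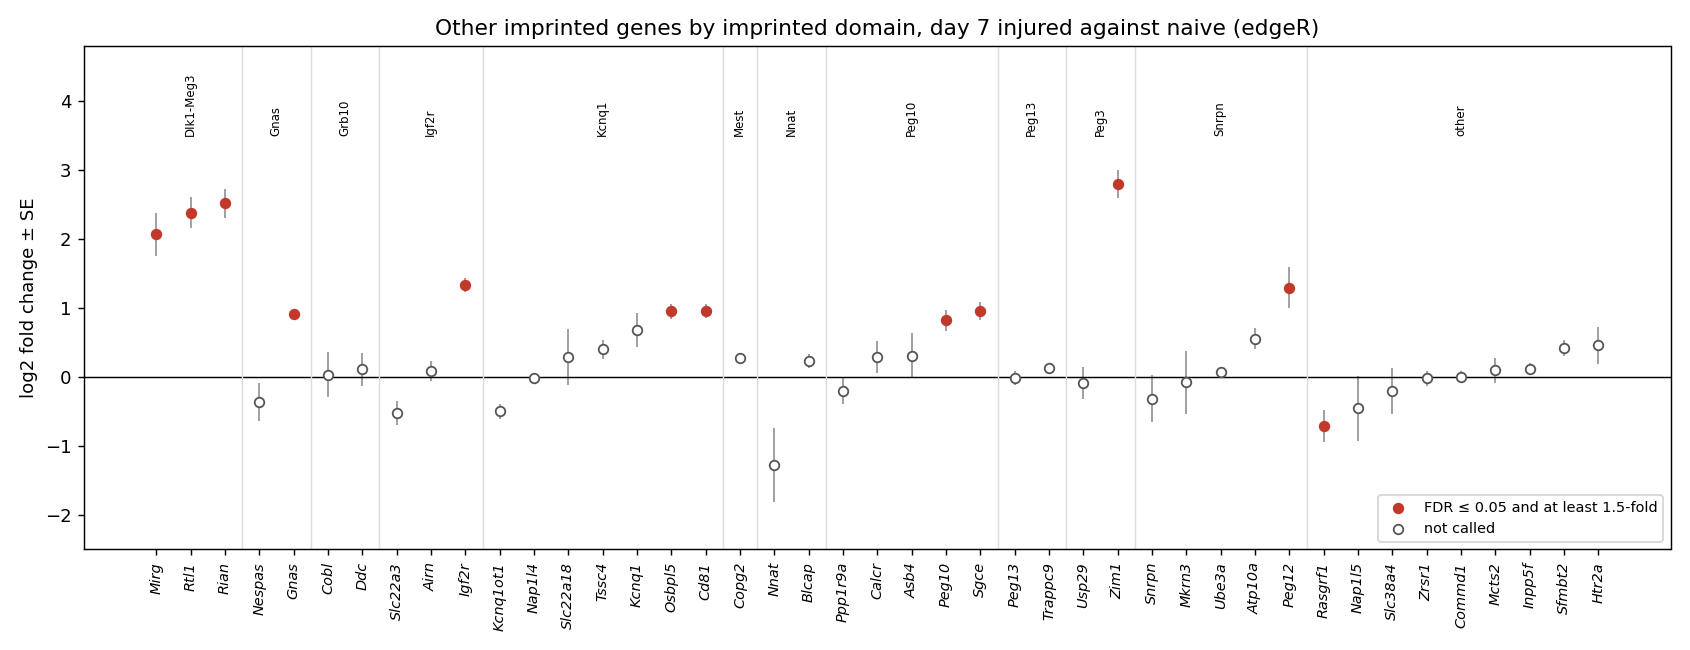
Log2 fold change with bars of 1 SE for 43 imprinted genes outside the chosen 10, day 7 injured against naïve, grouped by imprinted domain and coloured red where called (FDR≤0.05, ≥1.5-fold). The genes of the Dlk1 and Meg3 domain and Zim1 lie highest, between 2.07 and 2.80, and most others lie near 0.

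Igf2 acts through the IGF1 receptor and the insulin receptor and is cleared by Igf2r, the maternally expressed IGF2 receptor. Of 19 genes of this axis, 18 were tested, and 7 were higher and 0 lower in day 7 injured against naïve by edgeR, where 10.4% of all genes were called higher and 6.11% lower (14 of the 18 lay above 0). Neither signalling receptor passed the test, with Igf1r at 145 ± 8.69 CPM (SD, n = 6) in naïve and 137 ± 2.76 CPM (n = 3) in day 7 injured libraries, and Insr at 91.9 to 118 CPM in naïve and 100.2 to 105 CPM in day 7 injured libraries. Their log2 fold changes were -0.06 ± 0.07 (edgeR, adjusted p = 0.57) and 0.01 ± 0.08 (adjusted p = 0.95). Igf2r was at 266, 299 and 343 CPM in the day 7 injured libraries, all above its naïve range of 104 to 139 CPM, and rose by 1.33 ± 0.10 (edgeR, adjusted p = 2.4e-07). Igf2r is on this list and on that of the other imprinted genes, and is counted among the called genes of both.

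The sister ligand Igf1 rose by 2.96 ± 0.14 on the log2 scale (edgeR, adjusted p = 2.1e-09), from 81.9 ± 14.5 to 631 ± 124 CPM. Of the binding proteins that hold IGFs outside the cell, Igfbp3 rose by 2.26 ± 0.17 (edgeR, adjusted p = 2.2e-07), Igfbp7 by 1.88 ± 0.16, Igfbp4 by 1.42 ± 0.11 and Igfbp2 by 1.27 ± 0.30 (the latter with adjusted p = 0.0052, on 9 to 39 counts). Igfbp2 was not called against day 7 contralateral (0.61 ± 0.36, edgeR, adjusted p = 0.27). Against day 7 contralateral 8 of the 18 were higher, where 9.33% of all genes were, and 9 without the library that stood apart, where 9.31% of all genes were. In the contrasts without the day 7 injured libraries edgeR called no gene at all, as given above, and so none of these.

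Of 8 genes known for keeping imprints, 7 were tested, and 1 was higher against naïve, a share near the 10.4% of all genes. It was Zfp57, the protein behind the hexamer shown above. Its RNA was scarce, at 0.378 ± 0.204 CPM in the naïve and 1.49 ± 0.656 CPM in the day 7 injured libraries (18 to 46 counts), with a log2 fold change of 1.99 ± 0.42 (edgeR, adjusted p = 0.0024). None of the 6 others passed the rule against naïve. Without the fold limit, Uhrf1 was lower against naïve (-0.33 ± 0.10, edgeR, adjusted p = 0.026). Against day 7 contralateral, Uhrf1 (-0.56 ± 0.13, edgeR, adjusted p = 0.0047) and Dnmt1 (-0.34 ± 0.10, adjusted p = 0.028) were lower. Zfp57 was the only gene of the list higher in these contrasts. Uhrf1 and Dnmt1 were named after their values were seen. Methylation was not measured in these libraries.

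Markers of other cell types moved in the same libraries. Of 8 fibroblast markers, 7 were higher in day 7 injured against naïve, where 10.4% of all genes were, and 6 were higher against day 7 contralateral, where 9.33% were. Their most abundant gene, Col1a1, was not called in the latter contrast (log2 fold change 0.77 ± 0.39, edgeR, adjusted p = 0.19). Their summed level was 75807, 72309 and 83230 CPM in the day 7 injured libraries, between 10668 and 18349 CPM in the naïve and between 8265 and 22364 CPM in the day 1 libraries, and 56530, 17037 and 23390 CPM in the day 7 contralateral libraries. In day 7 contralateral against naïve, 0 of the 8 markers were called by edgeR and their log2 fold changes ran from -0.75 to 1.26 with a median of 0.03. No fibroblast marker was at or under 3 counts in every library, and whether fibroblast RNA bears on the levels of the 10 genes was not tested.

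Chondrocyte markers had 2 of 8 genes higher against naïve and a summed level of 8281 ± 821 CPM in day 7 injured and 5743 ± 1230 CPM in naïve libraries. Endothelial markers had 4 of 6 higher (611 ± 37.0 and 518 ± 33.6 CPM), hypertrophic chondrocyte markers 2 of 5 higher, and osteoblast markers 1 of 6 higher, where 10.4% of all genes were called higher and 6.11% lower. With day 7 contralateral as the reference these counts were 3 of 6, 0 of 5 and 0 of 6, and 3 of 8 for chondrocyte markers. The most abundant endothelial marker, Vwf, went the other way against naïve, within the fold limit (log2 fold change -0.37 ± 0.12, edgeR, adjusted p = 0.027). Lower were 5 of 6 red cell (13951 ± 3144 and 21540 ± 2075 CPM), 3 of 6 adipocyte, 2 of 6 neutrophil and 1 of 8 adult muscle markers. With day 7 contralateral as the reference the lower counts were 2 of 6, 3 of 6, 1 of 6 and 0 of 8, where 3.23% of all genes were called lower. Without the fold limit the red cell count there was 4 of 6. No marker of regenerating muscle, of macrophages or of proliferation was called in either direction against naïve. Without the fold limit, 3 of 6 proliferation markers were lower and 2 of 6 macrophage markers higher against naïve. Against day 7 contralateral, 1 regenerating muscle marker was higher (Myog, edgeR, adjusted p = 0.040) and 1 proliferation marker lower (Birc5, adjusted p = 0.0084), and against day 1 injured 1 macrophage marker was higher, where 9.04% of all genes were. Myog and Birc5 were named after their values were seen. The proliferation sum was 1769 ± 214 CPM in the day 7 injured and 2344 ± 169 CPM in the naïve libraries.

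For H19, Igf2 and Mest the genes with the nearest profiles over the 18 libraries were sought among 15988 genes with a mean of at least 1 CPM. These profiles include the day 7 injured libraries, so the distances largely restate the fold changes in them. Nearest to H19 was Igf2, at a root mean square difference of 0.285, followed by the fibril-associated collagen gene Col14a1 at 0.327 and Cpxm2 at 0.358. Nearest to Igf2 were Col14a1 at 0.270, Itgbl1 at 0.277 and Cpxm2 at 0.282. Mest had no imprinted gene among its nearest 3, which were Cthrc1 at 0.345, the tenascin gene Tnn at 0.405 and the thrombospondin gene Thbs2 at 0.432.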

How the data were processed

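RNA of pooled mouse knee cartilage caps was depleted of ribosomal RNA, made into stranded libraries and quantified per transcript. The authors trimmed the reads with Trimmomatic, pseudo-aligned them with kallisto to the GRCm38 mouse transcriptome and deposited estimated counts and TPM per transcript, without normalization between libraries. The series' entry names GRCh38, but the identifiers are those of mouse. The study removed 1 ACL library for low mapping, which is not named.

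Here 135107 of 137436 transcripts (98.3%) were matched without version to the GENCODE annotation, and the rest, which held 0.667% to 3.90% of counts, were left out. The deposited estimated counts were added up by gene (49184 genes), then rounded to whole numbers. Groups were compared with the edgeR 4.0.16 quasi-likelihood test (R 4.3.3, TMM, filter on low counts, Benjamini-Hochberg) without covariates, on 15 libraries or, in contrasts with day 7 contralateral, on 18. Calls required FDR≤0.05 and a change of ≥1.5-fold. The SE of an edgeR log2 fold change was taken as its absolute value divided by the square root of the test's F statistic, and so comes from that test. CPM used the TMM factors of all 18 libraries, and log2 CPM had a prior count of 2. Libraries were treated as independent, and the p-values measure only the spread between these pools. Transcript starts within 1000 bases were joined.

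Named were all 10 members, up to 6 called genes per direction of each list with the largest change, Igf1r, Insr, Igf2r, the most abundant marker, and the 3 nearest profiles. Neighbours in the same imprinted domain and the transcripts of H19 and Grb10 were named after their values were seen. The members and lists were chosen with earlier results of these data known. The test was also run on simulated counts, the outcome of which is not given here. Alternatives were DESeq2 size factors, no filter, DESeq2 1.42.0, limma-voom (limma 3.58.1), a length offset, no fold limit, other sets of libraries and leaving out each library. Counting limits cover counting error only.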

Additional observations from a re-analysis of the deposited data

Results flagged for a closer look

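The effect of injury, taken as injured against contralateral, was larger at day 7 than at day 1 for 8 named genes outside the chosen 10 that passed the edgeR test of the difference (FDR≤0.05), of 15 named genes examined. Most of the 15 were named for their change in the same day 7 injured libraries, so the count is no independent support. Of all genes, 3.72% had a larger and 0.287% a smaller effect at day 7 by the same rule. As a description, the difference on the log2 scale was 2.98 ± 0.39 for Zim1, 2.75 ± 0.35 for Rian, 2.57 ± 0.42 for Rtl1 and 2.02 ± 0.53 for Mirg. It was 2.95 ± 0.30 for Igf1, 2.27 ± 0.29 for Igfbp3, 1.03 ± 0.18 for Igf2r and 0.97 ± 0.25 for Igfbp4. Without day 7 contralateral replicate 1, an alternative chosen after seeing the data, Mirg no longer passed (2.03 ± 0.58) and Igfbp7 did (1.73 ± 0.29, against 1.28 ± 0.35 with it), and the 7 others of the 8 still passed.

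Among the 6 naïve libraries, no library stood out from the others by Dixon's ratio in any of the 10 genes. Groups of 3 were not examined in this way.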

How the results depend on the processing

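Over 24 counts of called genes and 372 alternative values, 363 lay within 1.5 times the count reported. The 9 others concern the lone lower call of other imprinted genes. Against naïve the count of 1 (Rasgrf1) was 0 without the filter on low counts and with limma-voom, 2 with only the 2 groups compared, 3 with no fold limit, and from 0 to 1 on leaving out a library (0 without naïve replicate 1 or day 7 injured replicate 1; other counts of 1 need not be Rasgrf1). Against day 7 contralateral the count of 1 was 0 with only the 2 groups compared, and 0 without day 7 contralateral replicate 1 or day 7 injured replicate 3. The cause was not tested. The 24 counts do not include those of the cell markers, some of which moved further without the fold limit, as given with them. Some of the 24 were 0 in contrasts where edgeR called no gene at all, such as day 1 injured against naïve. A 0 that stayed 0 was taken as within the limit, so for these counts the agreement says little.

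Of the 30 log2 fold changes of the members with day 7 injured libraries, 0 changed sign under 410 alternative values, and 5 moved by more than 1 SD between replicates. With the transcript length offset Mest was at 4.24 against day 7 contralateral and 4.18 against day 1 injured, Dlk1 at 2.59 and Grb10 at 1.88 against day 7 contralateral. Cdkn1c moved without day 7 contralateral replicate 1, as given above. In the 40 changes without those libraries the sign turned under 47 of 600 alternative values, and 11 moved by more than 1 SD between replicates. By share of TPM, Mest-211 held 90.0% of Mest in the day 7 injured libraries in place of 96.1% by counts. The start of Igf2-201 held 43.6% of Igf2 by TPM in place of 71.7%. Chosen after seeing the data, the exclusion of day 7 contralateral replicate 1 turned r of Dlk1 and Meg3 from 0.0526 to -0.168 and left that of H19 and Igf2 at 0.764. No paired analysis was possible because the labels do not say which libraries share mice. The paper's limma fit accounted for samples from a shared mouse pool, and the p-values here do not. Depth limits Dlk1, Rtl1, Zfp57, Rasgrf1 and the naïve split of Mest, each with low counts in at least the naïve libraries.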
